A study of Homo sapiens with 4 samples.

Results

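The genes described here encode the heat shock chaperones HSP70, HSP110, HSP90, HSP60 with HSP10, the small heat shock proteins and the DNAJ proteins. They were chosen by symbol alone: every gene whose platform symbol starts with DNAJA, DNAJB, DNAJC, HSPA, HSPB, HSPD, HSPE, HSPH or HSP90A followed by a number or letter, leaving out HSPA5 and pseudogenes. The rule matched 78 symbols, and after HSPA5 and 6 pseudogenes were removed it left 71 of the 18639 genes on the array. The symbol rule also took in genes that encode no chaperone of these classes: HSPBP1 and HSPBAP1, whose products bind heat shock proteins, the non-coding RNA DNAJC3-DT, and DNAJC25-GNG10, a readthrough transcript of neighbouring genes.

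RNA came from HEK293 cells (a line derived from human embryonic kidney) in 4 groups of 1 array each: cells with an LGP2 transgene and cells with an LGP2-4KR transgene, each unstimulated (0 hr) and 12 hr after 100 ng/ml short (low molecular weight) poly I:C was transfected with Lipofectamine. LGP2 is a cytosolic sensor of viral RNA related to RIG-I, poly I:C is a synthetic double-stranded RNA, and the labels do not define 4KR. All 4 groups carry a transgene, so no parental HEK293 cells enter, and the sources used here do not say whether each line is 1 clone. No mock-transfected or 12 hr untreated cells were analysed, so effects of poly I:C, of transfection and of 12 hr in culture cannot be told apart.

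HSP70 proteins bind exposed hydrophobic stretches of unfolded proteins and release them in a cycle driven by ATP. DNAJ proteins, also called HSP40 or J-domain proteins, deliver clients to HSP70 and stimulate its ATPase, HSP110 proteins exchange its nucleotide, HSP90 receives clients from it, and small heat shock proteins hold unfolded proteins without using ATP. When unfolded proteins accumulate, the transcription factor HSF1 binds heat shock elements, repeats of the 5-base unit nGAAn in alternating orientation, and raises transcription of the inducible members, while other members are constitutive or serve the endoplasmic reticulum or mitochondria.

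The promoters of HSPA8, HSPA6, DNAJB6, HSPA1A and HSPA1B are shown because they hold the heat shock element letters searched for, or belong to the HSP70 genes whose levels differed most. The search took the 250 bases before the gene start from RefSeq (GRCh38.p14), which had an entry for 64 of the 71 genes. A 3-unit element, GAANNTTCNNGAA or its reverse complement TTCNNGAANNTTC, was found in 3 of these 64 promoters (4.69%) and in 155 of 35116 promoters of all genes (0.441%). Sequences run 5′ to 3′ on the gene's strand, ending at the base before the gene start. In HSPA8 (chr11:123062137-123062386, minus strand), HSPA6 (chr1:161524290-161524539, plus strand) and DNAJB6 (chr7:157336754-157337003, plus strand) the capitals mark the 3-unit element. In HSPA1A (chr6:31815293-31815542, plus strand) and HSPA1B (chr6:31827488-31827737, plus strand) the capitals mark the shorter 2-unit letters GAANNTTC.
HSPA8: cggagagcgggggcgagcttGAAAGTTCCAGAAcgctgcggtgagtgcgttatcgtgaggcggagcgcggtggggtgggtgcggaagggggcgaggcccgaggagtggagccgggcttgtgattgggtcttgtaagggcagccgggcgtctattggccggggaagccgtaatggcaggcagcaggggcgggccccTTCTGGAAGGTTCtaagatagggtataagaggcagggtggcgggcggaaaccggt
HSPA6: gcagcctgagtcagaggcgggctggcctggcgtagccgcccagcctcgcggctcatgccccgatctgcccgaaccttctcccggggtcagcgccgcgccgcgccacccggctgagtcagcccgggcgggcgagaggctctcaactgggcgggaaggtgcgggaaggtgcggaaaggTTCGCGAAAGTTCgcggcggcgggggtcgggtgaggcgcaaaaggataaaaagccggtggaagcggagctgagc
DNAJB6: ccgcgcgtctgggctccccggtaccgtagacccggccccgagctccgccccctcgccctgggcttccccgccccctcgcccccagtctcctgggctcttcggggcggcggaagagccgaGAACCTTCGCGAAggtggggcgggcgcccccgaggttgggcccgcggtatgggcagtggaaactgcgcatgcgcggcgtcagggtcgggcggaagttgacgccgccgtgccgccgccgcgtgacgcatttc
HSPA1A: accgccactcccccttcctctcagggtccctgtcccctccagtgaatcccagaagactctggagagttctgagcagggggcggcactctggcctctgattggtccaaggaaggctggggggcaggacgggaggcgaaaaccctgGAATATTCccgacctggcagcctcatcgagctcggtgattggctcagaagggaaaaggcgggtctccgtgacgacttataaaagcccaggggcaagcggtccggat
HSPA1B: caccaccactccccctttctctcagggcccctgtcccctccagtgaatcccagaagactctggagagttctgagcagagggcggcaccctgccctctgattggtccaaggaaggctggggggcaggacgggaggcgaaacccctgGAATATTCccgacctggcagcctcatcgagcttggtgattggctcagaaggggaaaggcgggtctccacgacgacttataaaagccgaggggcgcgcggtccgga
HSPA8 held 2 of the 3-unit elements, starting 230 and 55 bases before the gene start, HSPA6 held 1 at 74 bases, and DNAJB6 held 1 at 131 bases. The shorter letters GAANNTTC or TTCNNGAA, a search chosen after the values were seen, stood in 12 of the 64 promoters (18.8%) and in 4067 of all 35116 (11.6%), so they are common. The HSPA1A and HSPA1B promoters shared 235 of 249 aligned bases (94.4%). The promoter of DNAJB1 had neither form in this window. A match is a description of the letters and not of factor binding, and the absence of one says nothing of bases outside the window.

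Each array held 24460 gene probes, of which between 83.2% and 89.2% gave a signal more than 2 SD above the mean blank spot, and 17085 genes were detected on at least 1 array. Of the 71 genes, 64 were detected on all 4 arrays, 5 (HSPA6, HSPB2, HSPB8, DNAJB7 and DNAJC5G) on 1 to 3, and DNAJB8 and DNAJC15 on none, which leaves 69 for the counts. HEK293-like markers VIM, NEFL, NEFM, INA, PAX2 and LIN28B were detected on all 4 arrays, and PTPRC, PECAM1 and ALB, markers of leukocytes, endothelium and hepatocytes, on none. Other markers of these types passed the detection level, CD3E, CD14, VWF and APOA1 on 4 arrays and CDH5 on 3, and so did the keratinocyte markers KRT5 (164 to 187) and KRT14 (373 to 453) on 4; their part in the results was not tested. Levels are normalized intensities that include an added offset of 50 and come from different probes, so they are compared between arrays and not between genes. RNA was from bulk cells, where fewer cells of a kind and less RNA per cell cannot be told apart.

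Ratios within a line compare 1 array with 1 array and have no test. The single test available was an additive limma fit of line and time, in which the 2 lines stand in for replicates, with 1 residual degree of freedom and Benjamini-Hochberg adjustment over 17085 genes. "Rose" and "fell" below refer to genes past an adjusted p of 0.05 in that fit, and log2 values are 12 hr over 0 hr. limma also draws each gene's variance toward a value pooled over all genes, here with 2.29 prior degrees of freedom. The SEs and p-values thus rest on the spread between these 2 lines and on the pooled variance. They do not measure the spread between separate cultures of either line. Where the lines nearly agreed, the SE came mainly from the pooled part. For HSPB7 the line ratios differed by 0.0094 and the SE was 0.030. Whether the 0 hr and 12 hr arrays of a gene overlapped is given below as a description. The share of all genes without overlap was not counted, so a lack of overlap is not read as support for a call.

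Single members moved in both directions, and the counts lay near the background shares of all genes. In the limma fit 7 of the 69 genes rose, against 8.03% of all genes tested, and 6 fell, against 7.39% of all genes. These shares also apply to the counts by family, compartment and list below, each of which holds few genes. The genes that rose were the HSP70 genes HSPA1A, HSPA1B and HSPA8, the DNAJ genes DNAJB1 and DNAJC25, and, named after their values were seen, DNAJA3 and DNAJC2. Those that fell were DNAJB11, DNAJC10, DNAJC8, HSPB7, HSPBP1 and DNAJC25-GNG10. At an unadjusted p under 0.05 there were 28 of 69, against 32.9% of all genes. The median log2 ratio of the 69 genes was -0.01 in the LGP2 line and 0.02 in the 4KR line, whereas all genes had -0.01 in each. Ratios had the same sign in both lines for 49 of the 64 genes detected on all arrays (76.6%), against 74.9% of all genes so detected. Across these 64 genes, which are not independent replicates, the ratios of the lines were correlated with a Pearson r of 0.77 and a Spearman rho of 0.77.

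The ratios were small. Past 1.5-fold, LGP2 cells had 2 of 69 genes higher at 12 hr (DNAJA1 and DNAJC9; 1.85% of all genes) and 0 lower (0.498% of all genes). The 4KR cells had 1 of 69 higher (HSPA1A; 1.55% of all genes) and 0 lower (0.416% of all genes), and with the offset of 50 no member passed 2-fold in either line, a ratio that 0.433% of all genes passed upward and 0.0117% downward in LGP2 cells, and 0.398% and 0.00585% in 4KR cells. A lower limit of 0.32 on the log2 scale was passed upward by 8 of 69 genes in LGP2 cells (6.23% of all genes) and 6 in 4KR cells (5.93% of all genes). It was passed downward by 3 in LGP2 cells (4.52% of all genes) and 5 in 4KR cells (4.65% of all genes). In both lines at once, 6 of 69 genes were higher (DNAJA1, DNAJB1, DNAJC9, HSPA1A, HSPA1B and HSPA8; 4.04% of all genes) and 3 were lower (DNAJB11, HSPB7 and DNAJC25-GNG10; 2.25% of all genes).

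**Figure D1:**
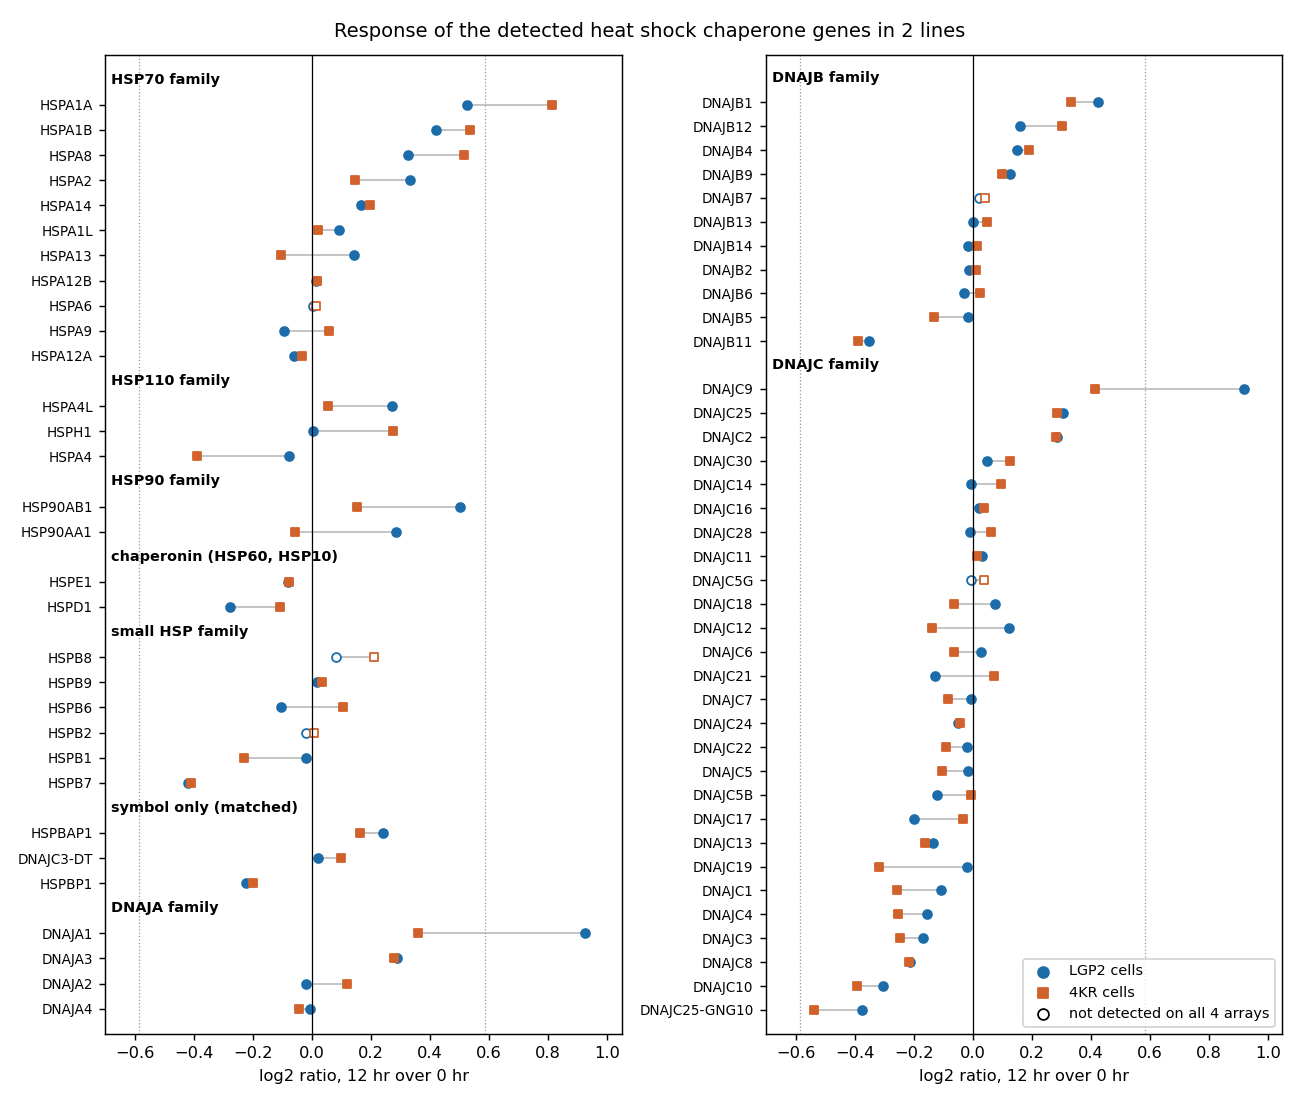
Log2 ratio of 12 hr over 0 hr for each of the 69 detected genes, sorted within families by the mean of both lines; circles are LGP2 cells, squares 4KR cells, open symbols genes not detected on all 4 arrays, and dotted lines mark 1.5-fold. HSPA1A, DNAJA1 and DNAJC9 lie past the upper dotted line in 1 line or the other, and no gene lies past the lower one.

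Among the HSP70 genes, the stress-inducible cytosolic pair HSPA1A and HSPA1B and the constitutive cytosolic form HSPA8 rose (8.03% of all genes). The other 8 of the 11 detected did not pass the test. HSPA1A had a normalized intensity of 8706 at 0 hr and 12537 at 12 hr in LGP2 cells, and 8188 and 14398 in 4KR cells. Both 12 hr arrays were above both 0 hr arrays. Its log2 ratios were 0.53 and 0.81, with a mean of 0.67 (SE 0.085, n = 2 lines, limma adjusted p = 0.033), a 1.59-fold rise. Its 2 probes, in separate regions of the array, gave 0.59 and 0.47 in LGP2 cells and 0.76 and 0.86 in 4KR cells.

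HSPA1B, whose protein is the same as that of HSPA1A, went from 3679 to 4926 in LGP2 cells and from 3046 to 4419 in 4KR cells. The groups at 0 hr and 12 hr did not overlap, and the mean log2 ratio was 0.48 (SE 0.044, n = 2 lines, limma adjusted p = 0.025), a 1.39-fold rise. Since the coding sequences of these genes are nearly identical, their probes may share signal, and the values of the pair are uncertain as separate measurements. HSPA8 went from 4624 to 5789 in LGP2 cells and from 3897 to 5568 in 4KR cells, again without overlap between times, with a mean of 0.42 (SE 0.061, n = 2 lines, limma adjusted p = 0.039), a 1.34-fold rise.

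HSPA6, a strictly inducible HSP70 whose promoter held the 3-unit element shown, was near the blank level on every array. Its normalized intensity was 55.4 and 55.5 in LGP2 cells and 56.0 and 56.5 in 4KR cells, values close to the offset of 50. It was above the detection level on the 2 arrays of 12 hr only, and no fold above 1 could be bounded in either line. In the authors' deposited table it had values of 1.7 in LGP2 cells and 1.9 in 4KR cells at 12 hr and none at 0 hr. HSPA9, the mitochondrial HSP70, had 1500 and 1406 in LGP2 cells and 1499 and 1561 in 4KR cells, with overlapping times and log2 ratios of opposite sign, -0.09 and 0.06 (limma adjusted p = 0.863). DNAJB6, a suppressor of protein aggregation and the other gene with the element in its promoter, had 238 and 233 in LGP2 cells and 237 and 241 in 4KR cells (limma adjusted p = 0.979), and it was singled out for its promoter.

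None of the 3 HSP110 genes passed the test. HSPH1, the inducible HSP110, had 718 and 720 in LGP2 cells and 638 and 771 in 4KR cells, with log2 ratios of 0.00 and 0.27 (limma adjusted p = 0.35). HSPA4, its constitutive relative, had 678 and 643 in LGP2 cells and 716 and 546 in 4KR cells, with log2 ratios of -0.08 and -0.39 (limma adjusted p = 0.201). For HSPA4 both 12 hr arrays were below both 0 hr arrays, and for HSPH1 both were above, although the LGP2 arrays of HSPH1 were nearly equal.

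The 2 HSP90 genes also did not pass. HSP90AA1, the inducible form, had 8932 and 10887 in LGP2 cells and 11791 and 11323 in 4KR cells, with log2 ratios of 0.29 and -0.06 (limma adjusted p = 0.526). HSP90AB1, the constitutive form, had 4601 and 6519 in LGP2 cells and 5593 and 6218 in 4KR cells, with log2 ratios of 0.50 and 0.15 (limma adjusted p = 0.135). HSP90AA1 overlapped between times, since its highest array was the unstimulated 4KR array, whereas HSP90AB1 did not.

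**Figure D2:**
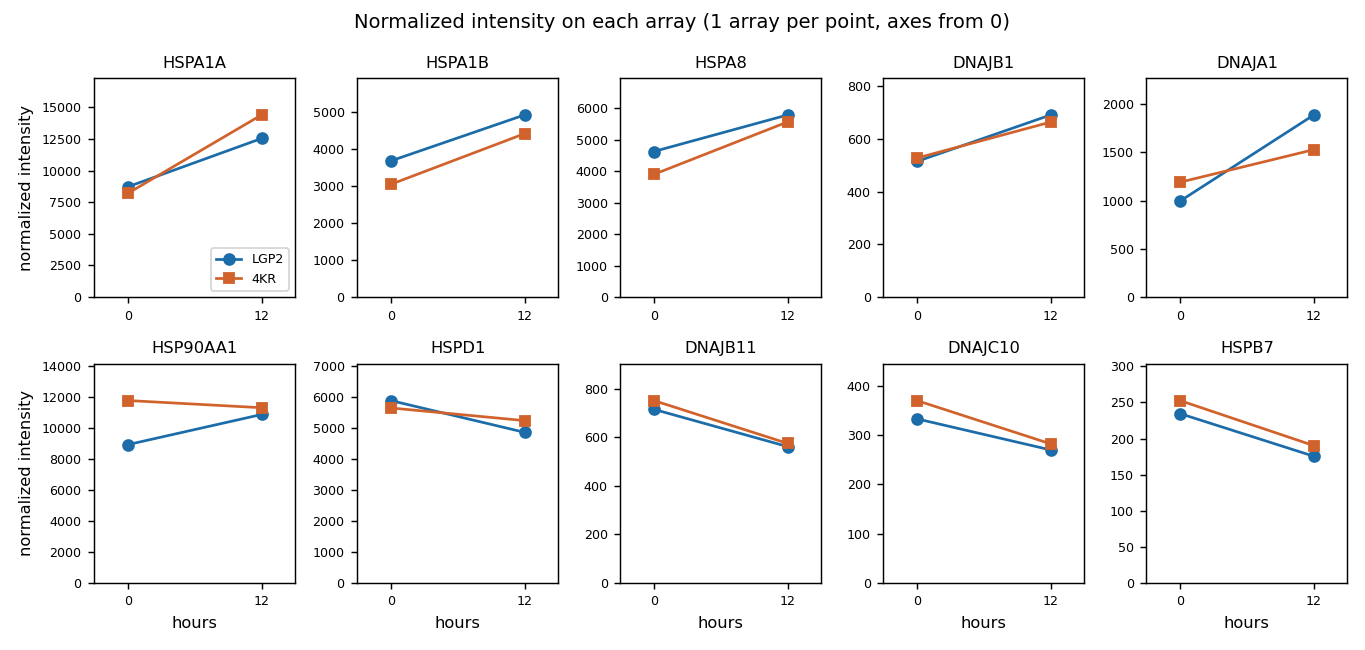
Normalized intensity on each of the 4 arrays against hours after transfection for 10 genes, with 1 array per point, circles for LGP2 cells, squares for 4KR cells, and each axis starting at 0. HSPA1A, HSPA1B, HSPA8 and DNAJB1 are higher at 12 hr in both lines, DNAJB11, DNAJC10 and HSPB7 lower, and HSP90AA1 runs in opposite directions.

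The DNAJA and DNAJB genes include the cytosolic partners of HSP70. In DNAJA, 1 of the 4 detected genes rose: DNAJA3, a mitochondrial J-protein, from 819 to 999 in LGP2 cells and from 790 to 957 in 4KR cells (mean 0.28, SE 0.030, n = 2 lines, limma adjusted p = 0.028). DNAJA1, a cytosolic partner of HSPA8, had 994 and 1890 in LGP2 cells and 1191 and 1529 in 4KR cells. Its 12 hr arrays were above both 0 hr arrays, but the log2 ratios of 0.93 and 0.36 differed so much that the mean of 0.64 (SE 0.159, n = 2 lines) did not pass (limma adjusted p = 0.091).

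DNAJB1, the inducible cytosolic J-protein that works with HSPA1A and HSPA8, rose from 515 to 692 in LGP2 cells and from 528 to 665 in 4KR cells. The 2 lines lay close together at each time, and the mean was 0.38 (SE 0.040, n = 2 lines, limma adjusted p = 0.028), a 1.30-fold rise. DNAJB4, a close relative of DNAJB1, had 120 and 133 in LGP2 cells and 120 and 137 in 4KR cells (limma adjusted p = 0.058), and its 2 probes disagreed, with log2 ratios of -0.08 and 0.38 in LGP2 cells. Of the 11 detected DNAJB genes, DNAJB1 rose, DNAJB11 fell and 9 were not called.

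Of the 6 detected members assigned to the endoplasmic reticulum, 4 had log2 ratios below 0 in both lines, as did 6998 of all 17085 genes. DNAJB11 and DNAJC10 fell, against 7.39% of all genes, and the other 4 were not called. The median mean ratio was -0.19 against -0.01 for all genes. The assignment to compartments was made with the values known and is partial. DNAJB12, DNAJB14, DNAJC14, DNAJC16 and DNAJC18, for example, were given no compartment. Their means were 0.23, 0.00, 0.04, 0.03 and 0.01, and they were not called. Other members without a compartment were lower, such as DNAJC4 (mean -0.20). The median would change if members without a compartment belonged here. DNAJB11, the co-chaperone of the HSP70 protein BiP in the endoplasmic reticulum, fell from 715 to 561 in LGP2 cells and from 751 to 574 in 4KR cells. Both 12 hr arrays were below both 0 hr arrays, and the mean was -0.37 (SE 0.032, n = 2 lines, limma adjusted p = 0.025), a 1.29-fold fall. DNAJC10, a J-protein that reduces disulfide bonds, fell from 334 to 270 in LGP2 cells and from 371 to 283 in 4KR cells (mean -0.35, SE 0.039, n = 2 lines, limma adjusted p = 0.029). DNAJC3, which inhibits the kinase PERK, had 133 and 118 in LGP2 cells and 134 and 113 in 4KR cells (mean -0.21, limma adjusted p = 0.053). DNAJB9, another J-protein of this compartment, went the other way, with 173 and 189 in LGP2 cells and 184 and 197 in 4KR cells (limma adjusted p = 0.111).

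In the DNAJC family, the most varied in function, 2 of 27 detected genes rose (8.03% of all genes) and 3 fell (7.39% of all genes), with 22 not called. The readthrough DNAJC25-GNG10 is counted here among those that fell. DNAJC2, a ribosome-associated J-protein, rose from 457 to 557 in LGP2 cells and from 472 to 575 in 4KR cells (mean 0.28, limma adjusted p = 0.028). DNAJC8, a nuclear protein linked to splicing, fell from 1113 to 960 in LGP2 cells and from 1067 to 919 in 4KR cells (limma adjusted p = 0.037). For both genes the 12 hr arrays lay on 1 side of the 0 hr arrays, and the lines moved by nearly the same amount. DNAJC9, a J-protein that is also a histone chaperone, had 1043 and 1971 in LGP2 cells and 1184 and 1577 in 4KR cells, with log2 ratios of 0.92 and 0.41 (limma adjusted p = 0.072).

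DNAJC25 and the readthrough DNAJC25-GNG10 differed in direction. DNAJC25 rose from 139 to 172 in LGP2 cells and from 123 to 149 in 4KR cells (mean 0.30, SE 0.031, n = 2 lines, limma adjusted p = 0.027). The readthrough fell from 386 to 298 in LGP2 cells and from 379 to 261 in 4KR cells (mean -0.46, SE 0.054, n = 2 lines, limma adjusted p = 0.031). The transcripts share sequence, so which of them each probe measured is uncertain.

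Of the 6 small heat shock protein genes, HSPB7 fell and 5 were not called. HSPB7, a small heat shock protein known mainly from heart muscle, fell from 235 to 175 in LGP2 cells and from 253 to 190 in 4KR cells (mean -0.42, SE 0.030, n = 2 lines, limma adjusted p = 0.024), a 1.33-fold fall with no overlap between times. HSPB1, the abundant HSP27, had 147 and 145 in LGP2 cells and 158 and 134 in 4KR cells (limma adjusted p = 0.307). HSPB8, the partner of BAG3 in selective autophagy, had 58.9 and 62.3 in LGP2 cells and 56.7 and 65.6 in 4KR cells (limma adjusted p = 0.144). It was not well above background in unstimulated 4KR cells, where the 12 hr level was at least 1.16-fold higher than the 0 hr level, taken as the lowest detected signal of that array. The offset shrinks so dim a gene: its log2 ratios were 0.69 and 1.89 with the blank level plainly subtracted, and 1.03 and 2.22 in the authors' deposited table relative to the median of all genes. Past 2-fold, HSPB8 was thus higher in 4KR cells under both of these settings and in LGP2 cells in the deposited table, while its mean did not pass the test under either (limma adjusted p = 0.204 and 0.053). HSPBP1, a nucleotide exchange factor of HSP70, fell from 308 to 264 and from 320 to 279 in the LGP2 and 4KR cells (limma adjusted p = 0.039).

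The chaperonin HSPD1 (HSP60) of the mitochondrial matrix had 5873 and 4846 in LGP2 cells and 5634 and 5224 in 4KR cells, with log2 ratios of -0.28 and -0.11 (limma adjusted p = 0.119). Its lid HSPE1 (HSP10) had 90.9 and 86.1 in LGP2 cells and 87.5 and 83.0 in 4KR cells, with log2 ratios of -0.08 in both lines (limma adjusted p = 0.194). The HSPE1 probe was dim, so the offset shrinks its ratios, which were -0.20 and -0.21 with the blank level plainly subtracted. Values at 12 hr were below those at 0 hr for both genes in both lines, and neither passed the test. Of the 7 detected mitochondrial members, DNAJA3 rose and 6 were not called, with a median mean ratio of -0.02. Of the 34 detected members of the cytosol and nucleus, 5 rose, 3 fell and 26 were not called, with a median of 0.05. Over all genes tested, 8.03% rose and 7.39% fell.

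Other genes of the same pathways were read from lists drawn up by function, and their counts stand against 8.03% of all genes that rose and 7.39% that fell. Among 13 detected heat shock factors and other inducible genes, IER5, an activator of HSF1, rose (log2 0.20 and 0.30, limma adjusted p = 0.047), and 3 fell. These were HSBP1, which binds HSF1 (-0.35 and -0.57, limma adjusted p = 0.040), SERPINH1, a collagen chaperone (-0.46 and -0.34, limma adjusted p = 0.029), and the metallothionein MT1X. SQSTM1, a receptor of selective autophagy, had the highest mean of this list with log2 ratios of 0.36 and 0.80 but did not pass (limma adjusted p = 0.072). Among 27 detected co-chaperones of HSP70 and HSP90, 3 rose, led by GRPEL2, a mitochondrial nucleotide exchange factor (0.43 and 0.67, limma adjusted p = 0.035), and BAG2 (0.29 and 0.42, limma adjusted p = 0.034), and 2 fell. ST13, which binds HSP70 and stabilizes its ADP state, had -0.26 and -0.53 (limma adjusted p = 0.067), and UNC45A, a myosin chaperone, fell (-0.25 and -0.41, limma adjusted p = 0.045). Among 15 genes of the cytosolic chaperonin and prefoldin, 2 rose, including the subunit CCT6A (0.26 and 0.35, limma adjusted p = 0.033), 1 fell, the prefoldin subunit PFDN5 (-0.18 and -0.24, limma adjusted p = 0.044), and 12 were not called.

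The 41 detected members outside the rule for named genes had mean log2 ratios between -0.20 and 0.28, and 39 of them were not called; the other 2 were DNAJA3 and DNAJC2.

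**Figure D3:**
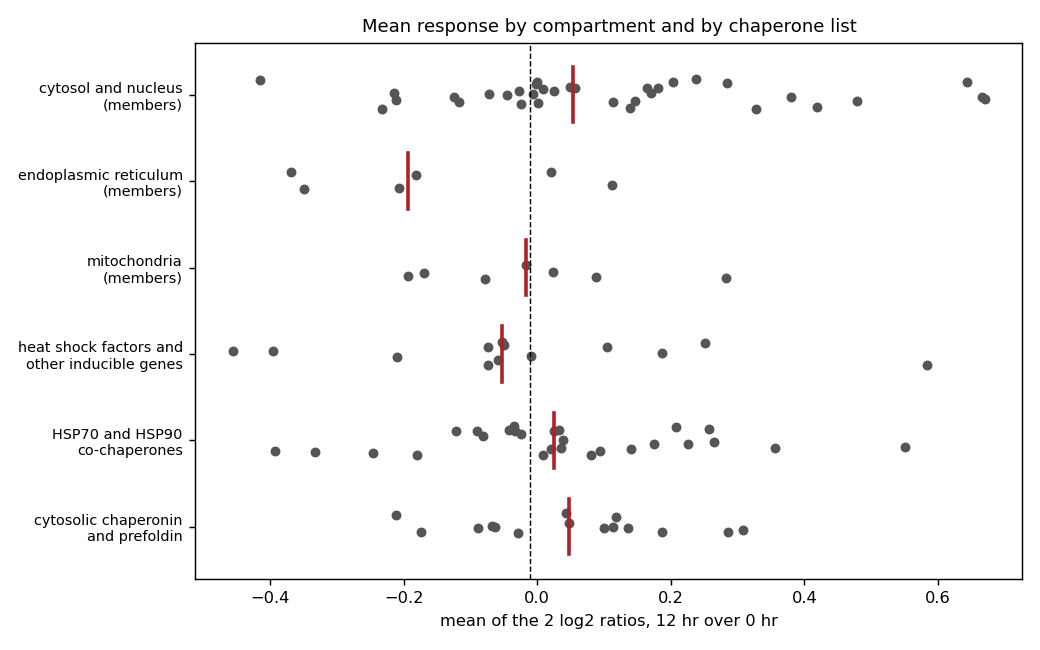
Mean of the 2 lines' log2 ratios for the detected genes of each compartment and list, 1 point per gene, with a red bar at the median of each and a dashed line at the median of all genes (-0.01). The medians are 0.05 for the cytosol and nucleus, -0.19 for the endoplasmic reticulum and -0.02 for the mitochondria, and the points of all 6 groups overlap. Members given no compartment are not shown.

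The lines were compared at each time and in their responses, with 1 array per group and no test. At 0 hr, no member passed 1.5-fold in 4KR over LGP2 cells (0.123% of all genes higher, 0.322% lower), and HSP90AA1 was the only member past the log2 limit of 0.32, with 0.40 (0.603% of all genes higher), and none was lower (1.67% of all genes). At 12 hr none passed 1.5-fold (0.0585% of all genes higher, 0.0351% lower), no member was past that limit higher (0.38% of all genes), and DNAJC9 was past it lower (0.656% of all genes). For the 4KR response minus the LGP2 response, 0 of 64 members passed 1.5-fold in either direction (0.451% of all genes higher, 0.432% lower). Past 0.32, none was higher in 4KR cells (2.15% of all genes) and 4 were lower (2.08% of all genes): DNAJA1 with -0.57, DNAJC9 with -0.51, HSP90AB1 with -0.35 and HSP90AA1 with -0.34.

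**Figure D4:**
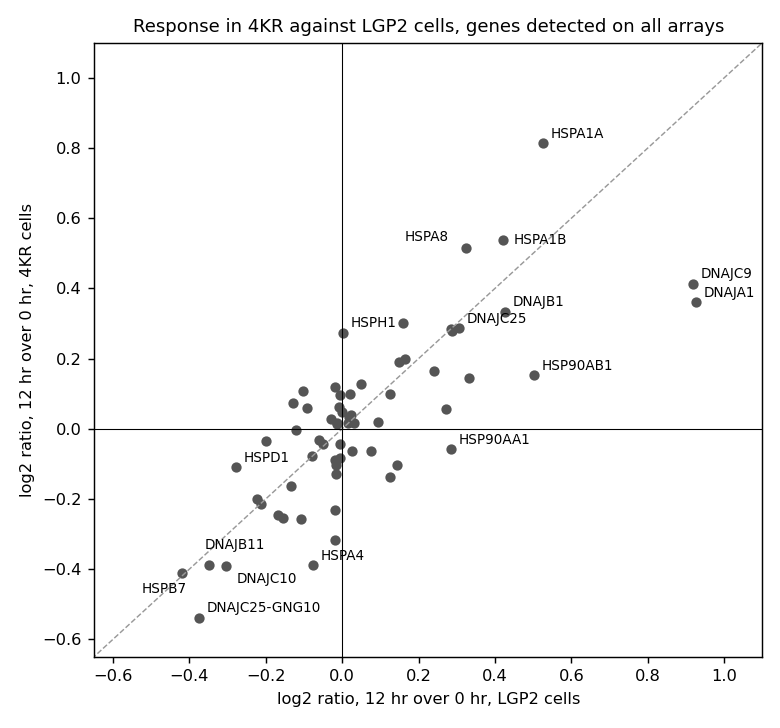
Log2 ratio of 12 hr over 0 hr in 4KR cells against that in LGP2 cells for the 64 genes detected on all arrays, with a dashed line of equality. HSPA1A lies highest in 4KR cells, and DNAJA1, DNAJC9, HSP90AB1 and HSP90AA1 lie below the line of equality.

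Position on the array moved with these differences. The probes of DNAJA1, DNAJC9 and HSP90AB1 lay in the same print block, 21 of 24, and that of HSP90AA1 in block 19. The bright probes of block 21 had median log2 ratios of 0.29 (LGP2) and -0.08 (4KR), and those of block 19 had 0.16 and 0.05. With a loess curve fitted in each block, chosen after seeing the data, the ratios of DNAJA1 became 0.55 and 0.46 and those of DNAJC9 0.54 and 0.51, a difference between lines of -0.09 and -0.03. Those of HSP90AB1 became 0.07 and 0.30, which turned its difference to 0.23, and the difference of HSP90AA1 was -0.25. After that correction no member passed 0.32 in the difference of the responses in either direction (0.832% of all genes higher, 0.902% lower).

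The same correction changed the mean responses of DNAJA1 and DNAJC9 from not called to called, with limma adjusted p of 0.0066 and 0.0055, and that of HSPH1, whose ratios became 0.14 and 0.17 (limma adjusted p = 0.0345). With this correction 23.5% of all genes were called, against 15.4% as reported. HSPA1A had 0.67 and 0.79, HSPA1B 0.50 and 0.64, HSPA8 0.43 and 0.44, and DNAJB1 0.52 and 0.46. DNAJB11 had -0.29 and -0.25, and HSPB7 -0.38 and -0.34. Each of these 6 genes kept its direction in both lines.

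**Figure D5:**
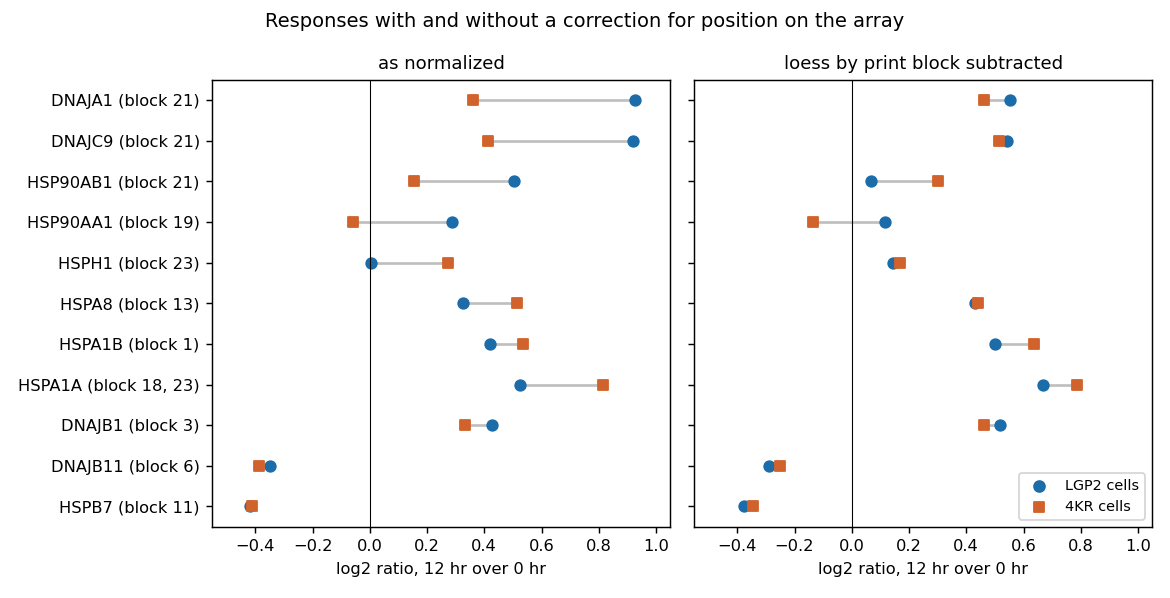
Log2 ratio of 12 hr over 0 hr in LGP2 cells (circles) and 4KR cells (squares) for 11 genes with their print blocks, as normalized (left) and after a loess curve fitted in each block was subtracted (right). The distance between lines shrinks for DNAJA1 and DNAJC9, whose lines differ by -0.57 and -0.51 on the left and by -0.09 and -0.03 on the right.

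The calls depended on how background and scale were set. With the blank level plainly subtracted, limma called 0 of the genes tested at an adjusted p of 0.05, while 4940 genes and 20 members had an unadjusted p under 0.05. In the authors' deposited table it called 2 of 65 members, against 7.78% of all genes. These were DNAJC25 and, named after its values were seen, DNAJB13. The deposited values of DNAJB13 were close to the blank level, with 1.6 and 2.9 in LGP2 cells and 1.5 and 3.3 in 4KR cells. HSPA1A, HSPA1B and HSPA8 had limma adjusted p of 0.090, 0.090 and 0.139 there. Relative to the median of all genes in the deposited table, HSPA1A was 0.08 higher in LGP2 cells and 0.32 higher in 4KR cells. HSPA1B had 0.10 and 0.27 there, HSPA8 had 0.00 and 0.17, and DNAJB1 had 0.39 and 0.31. The all-gene median of the deposited table was itself 0.25 for LGP2 and 0.15 for 4KR cells. With no term for the line, HSPA1B and DNAJC25 were not called (limma adjusted p = 0.058 and 0.119). With no normalization between arrays 5 of the 6 genes that fell were not called and HSPBP1 was called higher (mean 0.25, limma adjusted p = 0.043). There DNAJB11, DNAJC10 and HSPB7 had means of 0.06, 0.11 and 0.01, where the median of all genes was 0.12 in the LGP2 line and 0.26 in the 4KR line.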

How the data were processed

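Per the labels' protocols, total RNA was amplified, coupled to Cy5 and hybridised to single-colour arrays. Per the file headers, the deposited scanner tables hold the median intensity of each spot, with readings at 3 gains, in linear scanner units. The authors' deposited series table holds background-subtracted intensities scaled to a median of 25 per array, found by setting it against the scanner values. The deposited array files and labels name no genome build; promoter coordinates are those of RefSeq, GRCh38.p14.

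Background was corrected in limma 3.58.1 (R 4.3.3) by normexp with an offset of 50, using the mean of the 384 blank spots, since the scanner's own background column followed the signal (correlation of logarithms 0.990 to 0.997). Quantile normalization and log2 of these deposited intensities followed, and probes of a symbol were averaged. The offset shrinks ratios of dim genes. Within-line ratios have no test. The additive fit was checked on simulated data with the same noise in every gene and no effect of line or position. The check therefore does not cover the position shifts of these arrays. The number of arrays limits precision.

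The members, gene lists and rules were chosen with earlier results of these data known. Named were 16 members chosen by symbol, the 8 highest and 8 lowest mean responses, the 4 highest and 4 lowest differences between lines, every member past 1.5-fold in a line, every member called with a mean past 0.32, and the 2 highest and 2 lowest of each other list. Alternatives covered the offset, the background, the scaling, the detection filter, position, probe averaging and the fit.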

Additional observations from a re-analysis of the deposited data

Results flagged for a closer look

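The responses of 17 of the 69 detected members had opposite signs in the lines, as did those of 4499 of all 17085 genes. Among the named members there were 4, a difference between lines that was not tested and rests on 1 array per group. The difference of the log2 ratios, 4KR minus LGP2, was 0.20 for DNAJC21, a J-protein of ribosome assembly, -0.34 for HSP90AA1, 0.15 for HSPA9 and 0.21 for the small heat shock protein HSPB6.

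Probes of HSPA5 and of 5 pseudogenes, which the symbol rule left out, gave signal above the blank spots on all 4 arrays. Their mean log2 ratios of 12 hr over 0 hr were -0.30 for HSPA5, which encodes BiP of the endoplasmic reticulum, -0.30 for HSPD1P1, 0.15 for DNAJA1P5, -0.15 for HSPE1P7, -0.059 for HSPE1P6 and -0.014 for HSPA8P14. HSPA5 went from 141 to 120 in LGP2 cells and from 150 to 115 in 4KR cells (limma adjusted p = 0.047). HSPD1P1 went from 2855 to 2250 in LGP2 cells and from 2685 to 2240 in 4KR cells (limma adjusted p = 0.032). Pseudogene probes may share sequence with the parent gene, so which transcript they measured is uncertain.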

How the results depend on the processing

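The labels give no replicate numbers and each group has 1 array, so no block by replicate number was fitted. The line is the block of the limma fit. Without it 9 members rose and 9 fell, against 1679 and 1567 of all 17085 genes. Leaving out an array was likewise not run, since it removes a group. The alternatives changed 1 choice at a time, with 2 exceptions. The deposited table differs in background, offset, scaling and the genes it lists. Plain subtraction used a floor in place of the offset: the blank level was subtracted first, the quantile scaling followed, and the floor came last. Members past 1.5-fold higher in LGP2 cells, 2 in the reported setting, numbered 4 with plain subtraction, 7 with no normalization between arrays, 11 in the deposited table, 0 without blocks 20, 21 and 24, and 1 with loess by block. In 4KR cells, where 1 was reported, they numbered 3, 18 and 4 in the first 3 of these settings and 2 with loess by block. Members past it lower in 4KR cells numbered 1 with an offset of 16 and 2 with plain subtraction, against 0. The counts of all genes past 1.5-fold were not made for these alternatives. The member counts are therefore not read as results about the members. The median member ratio minus that of all genes came to 0.0924 for LGP2 and 0.102 for 4KR cells with no normalization, a setting in which the median of all genes was 0.12 and 0.26. Members that rose in the limma fit, 7 as reported, numbered 13 with an offset of 16, 0 with plain subtraction, 41 with no normalization, 2 in the deposited table, 13 with block medians subtracted, 12 without the 3 blocks, 16 with loess by block and 11 with an intensity trend. Of all genes, 1372 rose as reported, and 1873, 0, 6925, 1165, 1899, 1854, 2451 and 1726 rose under these settings, in the same order. Tested were 17085 genes and 69 members, except 15970 and 65 in the deposited table and 15260 and 62 without the 3 blocks. Members that fell, 6 as reported, numbered 8 with an offset of 16, with block medians subtracted and with loess by block, and 9 without the 3 blocks. They numbered 6 with an intensity trend and 0 with plain subtraction, with no normalization and in the deposited table. Of all genes, 1263 fell as reported, and 1758, 0, 21, 78, 1629, 2176, 1567 and 1491 fell in the order given for the rises. All 13 reported calls were shared, in the same direction, with the offset of 16, block medians, loess by block, the brightest probe and both detection filters, 11 with no line term and with the trend, 7 with no normalization (where HSPBP1 was called in the opposite direction), 1 in the deposited table and 0 with plain subtraction. Of the values of named genes under the alternatives, 253 moved by less than the typical SD of a ratio (0.0401), 177 moved further and 6 changed sign with both values beyond that SD. Counting smaller values too, 19 of the 436 had the other sign. For the 6, relative to the median of all genes, no normalization gave 0.084 for DNAJC21 and 0.12 for HSPA4 in LGP2 cells and 0.10 for HSPBP1 in 4KR cells, and the deposited table gave -0.13 for HSP90AA1 in LGP2 cells, and -0.23 for HSP90AB1 and -0.15 for HSPA9 in 4KR cells. The cause was not tested. Signal close to the blank level limits HSPA6, HSPB2, HSPB8, DNAJB7 and DNAJC5G. It also limits DNAJB13 and DNAJA4, although both were detected on all 4 arrays.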
